A study of Mus musculus with 15 samples.

Results

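The S100 proteins are small calcium-binding proteins of the EF-hand superfamily, and the transcripts of 10 of their genes were followed across 5 related mouse mammary epithelial cell lines measured on 15 expression arrays. The members were S100a1, S100a4, S100a6, S100a8, S100a9, S100a10, S100a11, S100a13, S100a14 and S100a16, and every probe set carrying one of these symbols and no other was taken. That gave 13 probe sets for 9 of the 10 genes, out of 45101 probe sets and 18193 named genes in the table. S100a11 had no such probe set, since the single one that carries it carries further symbols too, and no value is given for it. S100a1 and S100a16 had more than 1 probe set each, as did S100a10, and each of these is described by the probe set that was brightest on average.

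NMuMG is a non-tumorigenic epithelial line from normal mouse mammary gland, wild-type and never passed through a mouse. E1KD was made from it by silencing hnRNP E1, the RNA-binding product of Pcbp1, and was not selected in mice either. M1P came from a primary tumour that E1KD formed in the mammary fat pad (in vivo passage 1), L1P from the lungs of mice given E1KD (passage 1), and L2P from the lungs of mice given L1P (passage 2). The silencing is shared by E1KD, M1P, L1P and L2P, and per the series' design text the hosts were NOD/SCID mice, which lack T and B cells. Each group is 1 cell line with 3 arrays, and there is no control vector line, so silencing and any other difference between E1KD and NMuMG cannot be told apart. Nothing in the labels says that a line's arrays are separate cultures, and p-values then measure only the spread between arrays, which may be technical.

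S100 proteins mostly work as dimers that open a hydrophobic surface when calcium binds and then grip a partner protein. Inside cells they act on the cytoskeleton, on membrane-bound annexins and on enzymes, and some are released and bind receptors such as RAGE and TLR4. In mammary tumours S100a4 is known for its link to motility and metastasis, and S100a8 and S100a9, which pair as calprotectin, are known from neutrophils, inflamed epithelium and metastatic niches. All 10 genes lie on mouse chromosome 3, within a region that also holds the small proline-rich and late cornified envelope genes of skin.

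The promoters of the members whose changes stand out are shown first, as RefSeq gives them on build GRCm38.p6, 5′ to 3′ in the direction of the gene. For S100a4, S100a8 and S100a9 the run holds 250 bases before and 30 after the annotated start, and capitals mark the letters TATAAA.
S100a4 (chr3:90603520-90603799, plus strand): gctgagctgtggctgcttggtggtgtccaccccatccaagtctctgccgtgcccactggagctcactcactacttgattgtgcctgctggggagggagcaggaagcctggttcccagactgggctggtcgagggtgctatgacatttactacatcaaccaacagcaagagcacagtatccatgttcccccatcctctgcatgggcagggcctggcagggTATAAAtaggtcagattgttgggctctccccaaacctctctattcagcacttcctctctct
S100a8 (chr3:90668821-90669100, plus strand): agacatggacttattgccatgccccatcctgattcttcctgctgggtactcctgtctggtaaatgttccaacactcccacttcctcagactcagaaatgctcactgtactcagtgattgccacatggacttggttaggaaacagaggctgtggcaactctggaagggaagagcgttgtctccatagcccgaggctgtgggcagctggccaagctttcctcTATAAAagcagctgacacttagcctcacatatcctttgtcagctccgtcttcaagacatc
S100a9 (chr3:90695692-90695971, minus strand): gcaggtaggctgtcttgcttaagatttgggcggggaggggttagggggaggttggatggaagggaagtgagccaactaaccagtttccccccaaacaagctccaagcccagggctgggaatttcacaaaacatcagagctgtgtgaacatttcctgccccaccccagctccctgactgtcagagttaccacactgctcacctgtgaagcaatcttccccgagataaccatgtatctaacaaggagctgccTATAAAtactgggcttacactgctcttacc

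TATAAA began at -31 in S100a4 and at -30 in S100a8, counted from the annotated start, and at position 1 in S100a9. Searched on both strands, it was present in 3 of the 8 members with a promoter window (250 bases before to 50 after the start) and in 13.6% of all 32851 windows of that length. GGGCGG, the GC box, was present for S100a9, S100a11 and S100a16 and in 35.7% of all windows. TGANTCA, a loose form of the AP-1 letters, was present for S100a11 (as TGAGTCA) and S100a16 (as TGAATCA) and in 7.81% of windows. S100a16 has more than 1 window, and its matches lie only in that starting at base 90540896. TTGCNNAA, the C/EBP type letters, was present for S100a9 and in 10.8% of windows. CCAAT was present for S100a6 and in 37.4%. A match describes letters in a window and is not evidence of a bound factor.

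S100a1 and S100a13 are neighbours transcribed away from each other, and their annotated starts lie 105 bases apart. The stretch between them is shown because both genes had nearly the same pattern over the arrays, described further on; capitals mark the 104 bases between the starts and lower case the first 20 transcribed bases of each gene, written in the direction of S100a13. None of the 5 motifs was found in either window.
S100a1 and S100a13 (chr3:90514311-90514454, plus strand): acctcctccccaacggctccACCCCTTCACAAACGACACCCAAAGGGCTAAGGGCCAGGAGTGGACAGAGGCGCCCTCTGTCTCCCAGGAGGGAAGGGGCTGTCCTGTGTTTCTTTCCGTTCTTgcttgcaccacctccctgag

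Values are deposited log2 signals, so a difference of 1 is a factor of 2. Array medians were 4.17 to 4.26, and signals over the table ran from 1.53 to 14.68. There are no read counts behind these values; 3 arrays per line limit the precision. Pcbp1, the silenced gene, gave 12.57 to 12.76 on the NMuMG arrays and 7.95 to 10.09 on the arrays of the silenced lines, as labelled. Arrays of a line correlated at 0.930 or more over all probe sets, with the lowest value within M1P (0.930 to 0.978). Among the M1P arrays, array 1 was highest for S100a1, S100a13, S100a14 and S100a16, and array 3 for S100a8 and S100a9. The median over all genes was 0.20 above E1KD with the 3 M1P arrays and 0.07 with array 3 alone. Results on M1P are therefore also given without arrays 1 and 2, on array 3 alone. In that setting the spread comes entirely from the other lines, and the lone array is assumed to vary as theirs do, so its adjusted p-values are no test of the spread within M1P and a call there is no replicate check. The epithelial keratins Krt8 and Krt18 were high on every array (13.42 or more) and Cdh1 lay at 10.15 to 11.58, while the epithelial marker Epcam was dim (4.95 to 5.80) and Cldn4 (3.36 to 3.98) and Cldn7 (3.00 to 3.74) were below the array medians in all lines.

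Most S100 genes had higher signals in NMuMG than in E1KD and the lung lines, with M1P in between or as high (higher for S100a16). S100a4, in contrast, was lower in the lung lines alone. By limma's moderated F test over the 5 lines, 8 of the 9 measured members differed among lines, all but S100a6, where 31.8% of all genes did. A member is said to have risen or fallen where limma's adjusted p was under 0.05 over all 18193 genes. From NMuMG to E1KD, 7 of 9 members fell, where 6.49% of all genes fell, and 0 rose, where 3.00% of all genes rose (0 members were higher at an unadjusted p under 0.05). The members' median log2 difference was -1.29 and that of all genes -0.07.

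From E1KD to the tumour line M1P, 4 of 9 members rose, where 17.7% of all genes rose, and 0 fell, where 9.86% fell (0 lower at an unadjusted p under 0.05). Their median difference was 0.60, and that of all genes 0.20. On M1P array 3 alone, with the spread of the other lines, the differences of 3 members passed (S100a1, S100a13 and S100a16), where those of 2.26% of all genes passed as higher, and the median was 1.03 beside 0.07 over all genes. In the lung lines 1 of 9 members fell from E1KD, S100a4, in L1P, where 1.29% of all genes fell, and likewise in L2P, where 1.64% fell. None rose, where 1.19% of all genes rose in L1P and 2.14% in L2P; at an unadjusted p under 0.05, 0 members were higher in L1P and 1 in L2P. The members' median difference from E1KD was 0.05 in L1P and 0.05 in L2P.

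Between the lung lines, L2P against L1P, 0 of 9 members passed limma's test, where 0.0934% of all genes rose and 0.0495% fell; 1 member, S100a4, was higher at an unadjusted p under 0.05. From M1P to L1P, 7 members fell, where 25.9% of all genes fell, and 0 rose, where 13.6% rose (0 higher at an unadjusted p under 0.05). Their median difference was -0.85 beside -0.25 over all genes. Without M1P arrays 1 and 2, the differences of 3 of 9 passed as lower (S100a1, S100a4 and S100a8), where those of 4.12% of all genes did, again with a single M1P array. The comparisons of M1P, L1P and L2P with E1KD share the E1KD arrays, and the values below are set side by side with no overlap taken between them.

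**Figure D1:**
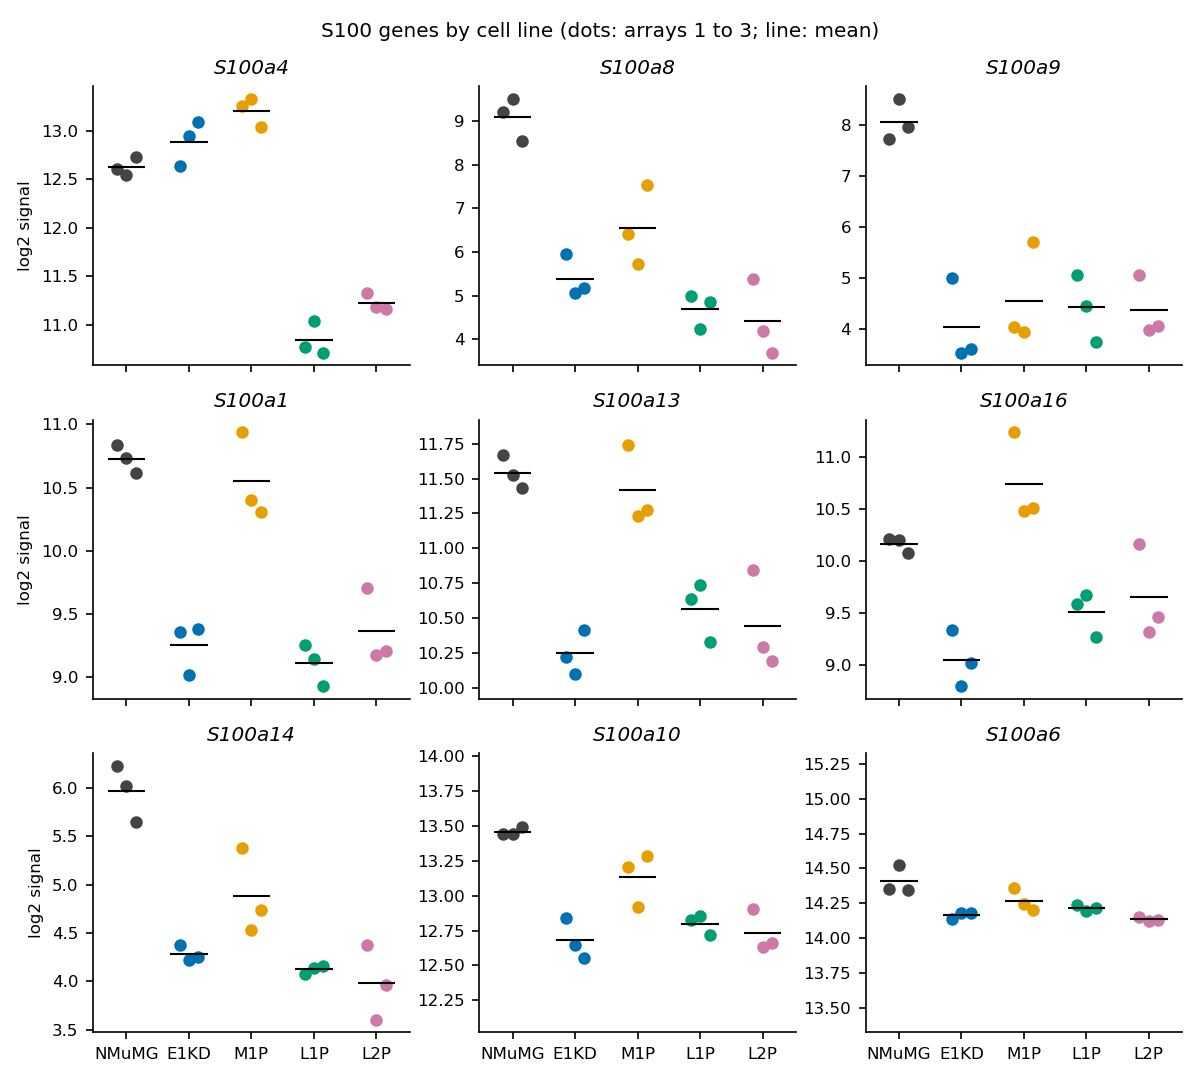
Log2 signal of each of the 9 measured S100 genes (vertical axes, each with its own range) on the 3 arrays of each cell line (dots) with the line mean (bar). The 6 lung-line arrays of S100a4 sit at 10.71 to 11.33, below the 9 others at 12.55 to 13.33, whereas S100a8 and S100a9 are highest on the 3 NMuMG arrays.

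S100a4, the metastasis-linked member, binds non-muscle myosin and p53 inside cells and acts on cell motility. Its probe set (1424542_at) gave 12.61, 12.55 and 12.74 in NMuMG, 12.63, 12.94 and 13.09 in E1KD and 13.26, 13.33 and 13.04 in M1P. In L1P it gave 10.77, 11.04 and 10.71, and in L2P 11.33, 11.18 and 11.17. All 6 lung-line arrays lay below all 9 others, and the L2P arrays lay above those of L1P. The signal stayed bright on every array, ranking between 203 and 1494 from the top of the 45101 probe sets. In order, the line means (SD, n = 3) were 13.21 ± 0.15 in M1P, 12.89 ± 0.23 in E1KD, 12.63 ± 0.10 in NMuMG, 11.23 ± 0.09 in L2P and 10.84 ± 0.17 in L1P, and the first 3 of these overlap with their neighbours.

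S100a4 fell by 2.05 ± 0.14 (SE) log2 units from E1KD to L1P, which is 4.14-fold (limma adjusted p = 1.92e-06). It fell by 1.66 ± 0.14 from E1KD to L2P, which is 3.17-fold (adjusted p = 1.13e-05). L1P minus M1P was -2.37 ± 0.14, or 5.17-fold lower (adjusted p = 1.22e-06), and -2.20 without M1P arrays 1 and 2. The falls in the lung lines passed under every alternative run.

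Among the lines outside the lung, S100a4 did not pass. E1KD minus NMuMG was 0.26 ± 0.14 (95% interval -0.04 to 0.57, limma adjusted p = 0.32), the one measured member with a higher mean in E1KD. M1P minus E1KD was 0.32 ± 0.14 (adjusted p = 0.0963), with overlapping arrays. It passed without M1P array 3 (0.41, adjusted p = 0.0441) and was 0.15 without arrays 1 and 2 (adjusted p = 0.738). L2P minus L1P was 0.39 ± 0.14 (95% interval 0.08 to 0.69), with an unadjusted p of 0.0165 and an adjusted p of 1.00. Fewer cells with the transcript and less of it per cell cannot be told apart in these bulk samples, here or for any other member.

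S100a8 and S100a9 encode the subunits of calprotectin, a secreted protein that binds calcium, zinc and manganese and signals through TLR4 and RAGE. S100a8 gave 9.21, 9.52 and 8.54 in NMuMG and 5.95, 5.05 and 5.16 in E1KD. In M1P it gave 6.42, 5.73 and 7.54, in L1P 5.00, 4.24 and 4.85, and in L2P 5.37, 4.19 and 3.69. The NMuMG arrays were the highest with no overlap, and M1P was the next highest line but overlapped with E1KD.

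S100a9 gave 7.72, 8.52 and 7.97 in NMuMG and 5.00, 3.54 and 3.61 in E1KD. It gave 4.03, 3.95 and 5.70 in M1P, 5.07, 4.46 and 3.75 in L1P, and 5.07, 3.98 and 4.06 in L2P. Only NMuMG stood apart; the 4 silenced lines overlapped throughout. The silenced lines' signals, 3.54 to 5.70, lay around the array medians or little above, and with no detection calls a dim signal may hold no transcript at all, so a fold against it is compressed.

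S100a9 fell by 4.02 ± 0.53 from NMuMG to E1KD, which is 16.2-fold (limma adjusted p = 0.000281). S100a8 fell by 3.70 ± 0.49 (adjusted p = 0.000283). These were the largest falls among the members, and both passed under every alternative that kept the gene. S100a9 was below the filter on low signals.

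In M1P, S100a8 was 1.17 ± 0.49 above E1KD (adjusted p = 0.0809) and S100a9 0.51 ± 0.53 (adjusted p = 0.448), and neither passed. M1P array 3 had the highest signal of both genes in M1P. S100a8 passed without M1P array 2 (1.59, limma adjusted p = 0.0368) and with quantile normalization (1.39, adjusted p = 0.0484). Without arrays 1 and 2 the differences were 2.15 (adjusted p = 0.053) and 1.65 (adjusted p = 0.153). S100a8 was -1.87 ± 0.49 in L1P against M1P (adjusted p = 0.014), a fall, and -2.85 without arrays 1 and 2 (adjusted p = 0.0131), while S100a9 differed by -0.13 ± 0.53 (adjusted p = 0.838). Against E1KD, S100a8 was -0.69 ± 0.49 in L1P (adjusted p = 0.814) and -0.97 ± 0.49 in L2P (adjusted p = 0.507), where it passed with array weights (-1.27, adjusted p = 0.0048). S100a9 was 0.38 ± 0.53 (adjusted p = 0.989) and 0.32 ± 0.53 (adjusted p = 0.997).

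S100a8 and S100a9 are abundant in neutrophils and monocytes, so leukocyte markers were read beside them. Ptprc (CD45), which all leukocytes carry, was 2.24 to 2.72 over the 15 arrays, and the neutrophil granule genes Mpo, Elane, Camp, Ltf and Ngp stayed between 3.21 and 5.10. Cd68 averaged 5.01 in E1KD, 5.65 in L1P and 6.18 in L2P, and Lyz2 4.19, 5.03 and 5.20. Of the 15 markers tested, 10 had a lower mean than E1KD in L1P and 9 in L2P. None passed as higher than E1KD in L1P or L2P (1 and 2 at an unadjusted p under 0.05 in limma). None passed as lower in L1P, where 1.29% of all genes fell. In L2P 1 did, Fcgr3, an Fc receptor (-1.08, limma adjusted p = 0.0297), where 1.64% fell. Its L2P mean, 3.51, lay below the array medians. The mean of 15 of the 17 listed markers found on the array was 4.35 to 4.45 in NMuMG and 4.21 to 4.37 in E1KD, where the ranges overlap. In E1KD against NMuMG 1 of the 15 rose (Fcgr3, 0.86), where 3.00% of all genes rose. None fell, where 6.49% of all genes fell (2 lower at an unadjusted p under 0.05 in limma). Cd14, a co-receptor of TLR4 that other cells carry too, gave 9.43 to 11.10.

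Keratinised epithelium also makes S100a8 and S100a9. The mean of its 10 markers was 5.53 to 5.83 in NMuMG and 5.31 to 5.44 in E1KD, without overlap. Of the 10, 1 fell (Sbsn, suprabasin, -1.35, limma adjusted p = 0.0191), where 6.49% of all genes fell. None rose, where 3.00% of all genes rose (0 higher at an unadjusted p under 0.05 in limma). The part of these lower marker signals in the falls of S100a8 and S100a9 was not tested.

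**Figure D2:**
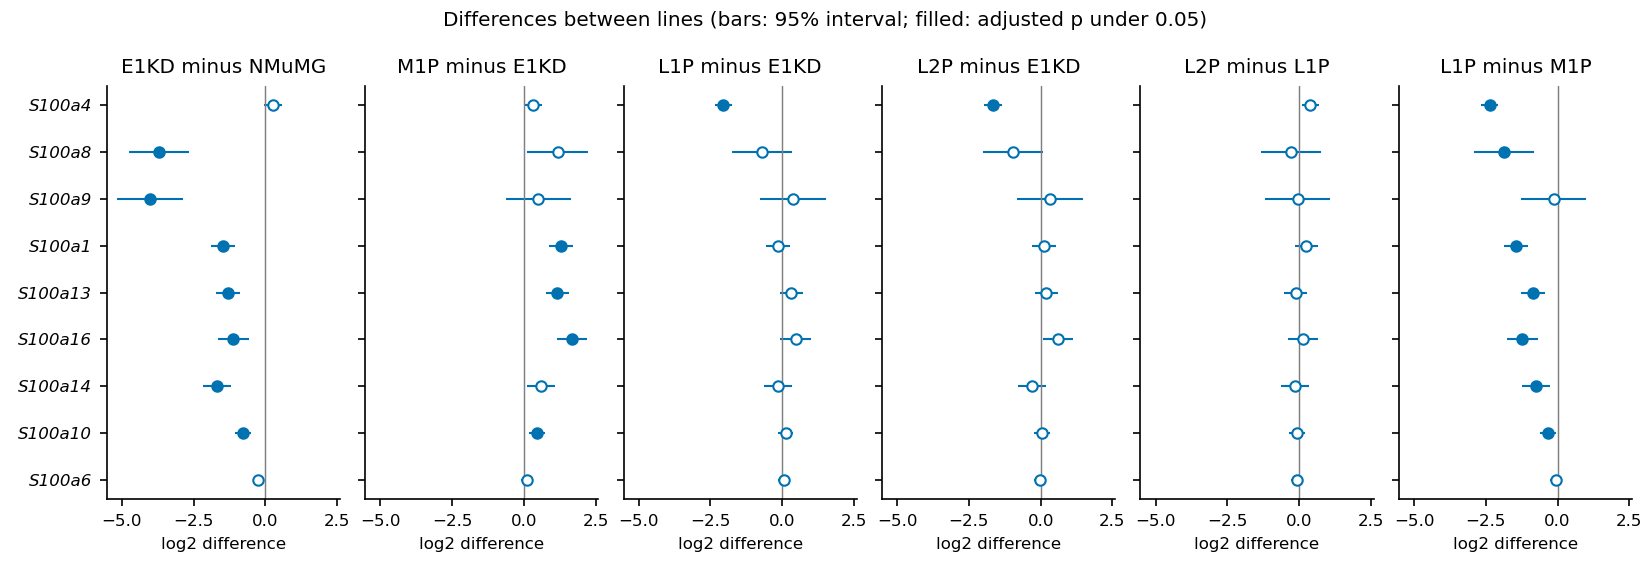
Log2 difference (horizontal axes) of each S100 gene in the 6 comparisons of lines, with the 95% interval of limma's fit; filled points have an adjusted p under 0.05. S100a4 is the only filled point in both lung comparisons with E1KD, and 7 of 9 points are filled to the left of 0 for E1KD minus NMuMG.

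S100a1, S100a13 and S100a16 lie together at one end of the cluster, with S100a14 between S100a13 and S100a16. S100a1 is best known in muscle, where it acts on calcium release channels, and S100a13 takes part in the release of FGF1 and interleukin 1 alpha, proteins that leave the cell without a signal peptide. S100a1 (1419814_s_at) gave 10.84, 10.74 and 10.62 in NMuMG and 9.36, 9.02 and 9.38 in E1KD. It gave 10.94, 10.40 and 10.30 in M1P, 9.25, 9.15 and 8.93 in L1P, and 9.70, 9.18 and 9.21 in L2P. NMuMG and M1P were high and overlapped, and all arrays of the other 3 lines were lower.

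S100a13 gave 11.67, 11.52 and 11.43 in NMuMG and 10.22, 10.10 and 10.42 in E1KD. It gave 11.74, 11.23 and 11.28 in M1P, 10.64, 10.74 and 10.33 in L1P, and 10.84, 10.30 and 10.19 in L2P. The same lines were high, with no array of E1KD, L1P or L2P reaching them.

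S100a1 fell by 1.48 ± 0.19 from NMuMG to E1KD, which is 2.79-fold (limma adjusted p = 0.000233). S100a13 fell by 1.29 ± 0.19, which is 2.45-fold (adjusted p = 0.000677). In M1P both rose, S100a1 2.46-fold (1.30 ± 0.19, adjusted p = 0.0013) and S100a13 2.25-fold (1.17 ± 0.19, adjusted p = 0.00247). On M1P array 3 alone the differences from E1KD were 1.05 (adjusted p = 0.0256) and 1.03 (adjusted p = 0.0367), where the spread is that of the other lines.

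L1P minus M1P was -1.44 ± 0.19 for S100a1 (limma adjusted p = 0.00051) and -0.85 ± 0.19 for S100a13 (adjusted p = 0.00765), and both fell. With M1P array 3 alone the second was -0.71 (adjusted p = 0.0986) and no longer passed. Against E1KD neither passed in the lung lines: S100a1 was -0.14 ± 0.19 in L1P and 0.11 ± 0.19 in L2P, and S100a13 0.32 ± 0.19 and 0.20 ± 0.19. The smallest adjusted p of these 4 was 0.704.

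S100a16, a broadly expressed member with a single working calcium site per subunit, gave 10.21, 10.20 and 10.08 in NMuMG and 9.34, 8.79 and 9.02 in E1KD (1425560_a_at). It gave 11.24, 10.47 and 10.50 in M1P, 9.59, 9.68 and 9.27 in L1P, and 10.16, 9.32 and 9.46 in L2P. M1P was the highest line, above NMuMG on every array, and L2P array 1 reached into the NMuMG range. S100a16 fell by 1.11 ± 0.24 from NMuMG to E1KD, which is 2.16-fold (limma adjusted p = 0.0106), and was at -0.99 without E1KD array 2 (adjusted p = 0.0593), where the call was lost. It rose 3.23-fold in M1P, by 1.69 ± 0.24 (adjusted p = 0.00122), and by 1.46 without M1P arrays 1 and 2 (adjusted p = 0.0193).

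S100a16 then fell by 1.23 ± 0.24 from M1P to L1P (limma adjusted p = 0.0045), with -0.99 (adjusted p = 0.0636) without M1P arrays 1 and 2. It was 0.46 ± 0.24 above E1KD in L1P (adjusted p = 0.612) and 0.60 ± 0.24 in L2P (adjusted p = 0.309, unadjusted p = 0.029). With array weights it passed in L1P (0.47, adjusted p = 0.0387) and did not in L2P (0.38, adjusted p = 0.0662). The second probe sets of S100a1 (1417421_at) and S100a16 (1447676_x_at) gave the same direction and call in each comparison of 2 lines where the first had passed, tested over all 45037 probe sets other than controls. For S100a1 they read -1.49 ± 0.19 from NMuMG to E1KD and 1.25 ± 0.19 from E1KD to M1P, and for S100a16 -1.12 ± 0.24 and 1.72 ± 0.24.

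All rises in M1P were lost when only E1KD and M1P entered the model, with adjusted p from 0.0723 to 0.162, and with array weights S100a16 alone still rose. Of the falls from M1P to L1P, those of S100a1 and S100a4 passed in both of these settings and the others did not.

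S100a14 is an epithelial member that lacks a full calcium site, and its signal was low. It gave 6.22, 6.02 and 5.64 in NMuMG, 4.38, 4.22 and 4.25 in E1KD and 5.38, 4.53 and 4.74 in M1P. The lung arrays read 4.07, 4.14 and 4.16 in L1P and 4.37, 3.61 and 3.96 in L2P. NMuMG was highest and M1P next, each apart from the lines below it. S100a14 fell by 1.68 ± 0.23 from NMuMG to E1KD, which is 3.20-fold (limma adjusted p = 0.000367).

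M1P minus E1KD was 0.60 ± 0.23 for S100a14 and did not pass (limma adjusted p = 0.0634), though it did without M1P array 2 (0.77, adjusted p = 0.035) or array 3 (0.67, adjusted p = 0.0468). It fell by 0.76 ± 0.23 from M1P to L1P (adjusted p = 0.0233), with -0.61 (adjusted p = 0.17) without M1P arrays 1 and 2. This fall did not pass without M1P array 1 (-0.51, adjusted p = 0.095) or without any 1 of the L1P arrays (adjusted p = 0.0526 to 0.0657). The differences from E1KD were -0.16 ± 0.23 in L1P and -0.30 ± 0.23 in L2P (adjusted p = 0.989 and 0.821), and with array weights the latter passed (-0.47, adjusted p = 0.0262). S100a14 was also under the filter on low signals.

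S100a10, called p11, does not respond to calcium and pairs with annexin A2, with which it holds plasminogen and ion channels at the membrane. Its brightest probe set (1416762_at) gave 13.44, 13.44 and 13.49 in NMuMG, 12.84, 12.65 and 12.55 in E1KD and 13.20, 12.92 and 13.28 in M1P. The lung arrays read 12.83, 12.85 and 12.72 in L1P and 12.90, 12.63 and 12.66 in L2P. NMuMG was apart at the top and M1P apart below it, and E1KD, L1P and L2P overlapped.

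S100a10 fell by 0.78 ± 0.12 from NMuMG to E1KD, which is 1.71-fold (limma adjusted p = 0.0014). It rose 1.37-fold in M1P, by 0.46 ± 0.12 (adjusted p = 0.0223), where the median of all genes was 0.20 higher, and the difference was 0.60 (adjusted p = 0.0513) without M1P arrays 1 and 2. It fell by 0.34 ± 0.12 from M1P to L1P (adjusted p = 0.0476), a call lost without arrays 1 and 2 (-0.48, adjusted p = 0.0857). The rise did not pass without E1KD array 2 (adjusted p = 0.0824), E1KD array 3 (adjusted p = 0.0763) or M1P array 1 (adjusted p = 0.0651). The fall from M1P did not pass without M1P array 1 (adjusted p = 0.131), M1P array 3 (adjusted p = 0.114) or any 1 of the L1P arrays (adjusted p = 0.0772 to 0.144), nor with the filter on low signals (adjusted p = 0.0521). The lung lines differed from E1KD by 0.12 ± 0.12 and 0.05 ± 0.12 (adjusted p = 0.95 and 0.999).

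The 3 probe sets of S100a10 did not agree in M1P. The second (1456642_x_at) gave -0.79 ± 0.13 from NMuMG to E1KD and 0.43 ± 0.13 from E1KD to M1P, both past the threshold over all probe sets (limma adjusted p = 0.00229 and 0.0368). The third and dimmest (1439348_at) read 7.10, 6.96 and 6.46 in E1KD and 6.01, 6.66 and 7.47 in M1P, which overlap. It gave -0.13 ± 0.29 from E1KD to M1P (adjusted p = 0.752) and -0.86 ± 0.29 from NMuMG to E1KD (adjusted p = 0.114). For L1P minus M1P it gave 0.51 ± 0.29, the opposite sign to the others (adjusted p = 0.181), and in the fit over probe sets the first no longer passed there (adjusted p = 0.0517).

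S100a6, calcyclin, is linked to proliferating cells and binds the ubiquitin ligase adaptor Cacybp. Its signals were 14.35, 14.52 and 14.34 in NMuMG, 14.14, 14.18 and 14.18 in E1KD and 14.36, 14.25 and 14.20 in M1P. L1P gave 14.24, 14.20 and 14.22 and L2P 14.15, 14.13 and 14.13. It ranked between 1 and 24 from the top of the 45101 probe sets on every array, near the ceiling of the scale, where differences are compressed. E1KD minus NMuMG was -0.24 ± 0.09 (95% interval -0.44 to -0.04), lower on all 3 arrays but not past the threshold (limma adjusted p = 0.141). It passed with array weights (adjusted p = 0.0351) and with an intensity trend in the variance (adjusted p = 0.0118). M1P minus E1KD was 0.10 ± 0.09, and the lung lines differed from E1KD by 0.05 ± 0.09 and -0.03 ± 0.09.

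Over the 15 arrays the members were compared by Pearson's r, as a description over arrays that share 5 lines. S100a1 and S100a13, with the neighbouring starts shown above, had r = 0.958, the highest of the 36 pairs. S100a8 with S100a14 had r = 0.943, S100a8 with S100a10 0.924 and S100a8 with S100a9 0.892. S100a4 with S100a9 had the lowest r of the 36, at 0.189. The 8 pairs of S100a4 ran from there to 0.633, with S100a1, and 4 pairs of S100a16 lay within that range too, with S100a9 (0.379), S100a8 (0.529), S100a6 (0.557) and S100a14 (0.609).

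**Figure D3:**
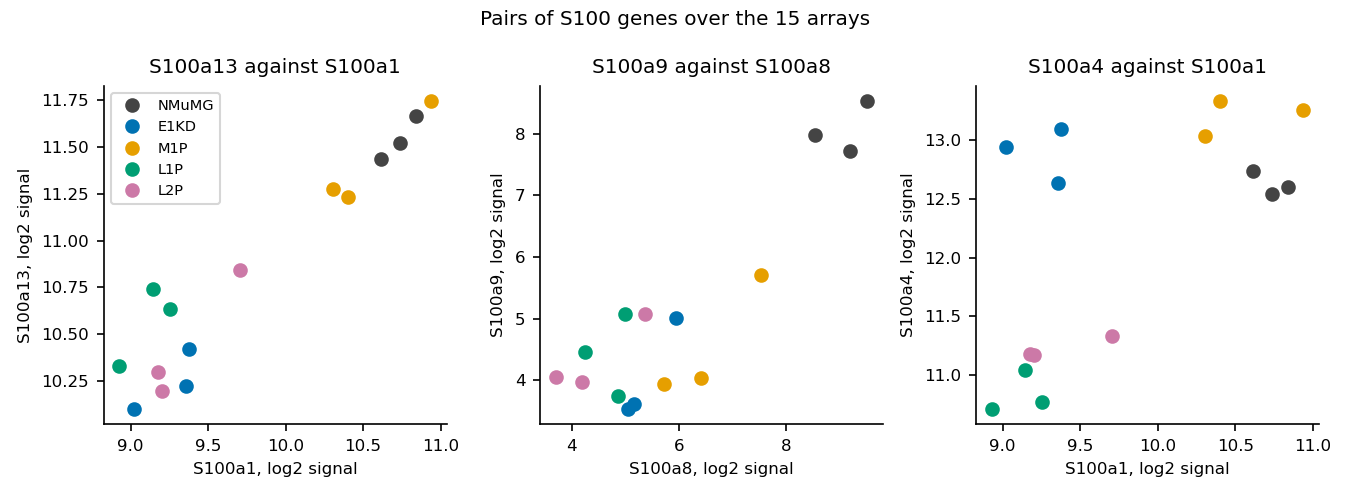
Log2 signals of 3 pairs of S100 genes on the 15 arrays, coloured by cell line. S100a13 follows S100a1 (r = 0.958), and S100a9 separates only NMuMG from the other lines. S100a4 is lower on the lung arrays alone, while S100a1 is lower in E1KD as well.

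The genes most like S100a4 over the 15 arrays, among 4437 genes whose line means spanned at least 1 log2 unit, were Lurap1l (r = 0.967), Hhex (0.957), Fmc1 (0.944), Snhg10 (0.938) and 1700016C15Rik (0.936). Lurap1l averaged 9.92 in E1KD and 10.04 in M1P against 8.46 in L1P and 8.58 in L2P. Hhex, a homeobox transcription factor, averaged 9.47 and 9.79 against 8.03 and 7.85. The 5 were chosen for their likeness to S100a4, so low means in the lung lines are part of that choice. The line means of 1700016C15Rik, 2.59 to 3.79, lay below the array medians.

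Fibroblasts are a known source of S100a4, and their markers were read beside its fall in the lung lines. The mean of 11 markers was 3.38 to 3.60 in E1KD, 3.44 to 3.47 in L1P and 3.52 to 3.73 in L2P. None of the 11 passed from E1KD to L1P (limma, 0 at an unadjusted p under 0.05), and 1 rose in L2P (Acta2, smooth muscle actin, by 0.78). Of all genes, 1.19% rose and 1.29% fell in L1P, and 2.14% rose and 1.64% fell in L2P. Col1a1 stayed between 3.29 and 4.17 and Dcn between 3.65 and 4.30 over all arrays. Other markers of the list reached further, Col1a2 from 4.02 to 6.46 and Acta2 from 4.89 to 6.67.

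Markers of other cell types were also read in M1P, where the median of all genes was 0.20 above E1KD. The median differences were 0.32 for the leukocyte list, 0.32 for the fibroblast list and 0.44 for the keratinised list. The leukocyte mean was 4.39 to 4.84 in M1P, the fibroblast mean 3.71 to 4.33 and the keratinised mean 5.68 to 6.27, each above its E1KD range. In M1P against E1KD, where 17.7% of all genes rose and 9.86% fell, 0 of 15 leukocyte markers passed (6 higher at an unadjusted p under 0.05 in limma), 2 of 11 fibroblast markers rose (Acta2 1.37 and Col1a2 1.09), and 3 of 10 keratinised markers rose (Sprr1a 2.18, Sprr1b 1.27 and Lor 0.94) and 1 fell (Sbsn, -1.25). Of 8 epithelial markers, Krt19 alone rose, by 0.68, and 0 fell. The part of these in the S100 rises was not tested. In L1P against M1P, where 25.9% of all genes fell and 13.6% rose, 8 leukocyte, 5 fibroblast, 7 keratinised and 1 epithelial marker fell and 1 keratinised marker (Sbsn) rose. Some were below the array medians in both lines, such as Mpo (3.99 in M1P, 3.52 in L1P), Thy1 (4.01, 3.43) and Krt17 (2.92, 2.46). With no detection calls, such differences are not read as changes in transcript. Brighter ones were Cd14 (10.85, 9.74), Acta2 (6.54, 5.53) and Sprr1a (13.30, 11.29). On M1P array 3 alone, the differences of 1 fibroblast, 1 keratinised and 0 leukocyte markers passed as higher than E1KD (1 leukocyte marker at an unadjusted p under 0.05 in limma). From that array to L1P, 1 fibroblast and 2 keratinised markers were called lower and 1 leukocyte marker higher, with 0 leukocyte markers lower (2 at an unadjusted p under 0.05).

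Of 9 other genes of the family or named for it, 6 were on the array. In E1KD against NMuMG, 2 of the 6 passed as lower, where 6.49% of all genes did, with a median difference of -0.19. None rose, where 3.00% of all genes rose (0 higher at an unadjusted p under 0.05 in limma). S100a3, a hair follicle member whose gene lies between S100a16 and S100a4, fell by 2.25 ± 0.21 (limma adjusted p = 1.62e-05). The other was S100g, the vitamin D-dependent calbindin, whose means of 4.19 in NMuMG, 2.62 in E1KD, 4.11 in M1P and 2.71 in L1P lay at or below the array medians. With no detection calls it is not shown to be above background in any of these lines, and its differences are not read as changes in transcript. In M1P 2 of the 6 passed as higher, S100a3 by 1.03 ± 0.21 (limma adjusted p = 0.00764) and the dim S100g, and S100pbp fell by 1.15 ± 0.34 (adjusted p = 0.0308). Over all genes 17.7% rose and 9.86% fell. With M1P array 3 alone, S100g passed as higher and 0 as lower. In L1P and L2P 0 of 6 passed against E1KD (0 and 1 at an unadjusted p under 0.05 in limma). Of all genes, 1.19% rose and 1.29% fell in L1P, and 2.14% rose and 1.64% fell in L2P. L1P minus M1P was -1.46 for S100a3 and 1.35 for S100pbp, both past the threshold, and S100g passed as lower. Over all genes 25.9% fell and 13.6% rose. On M1P array 3 alone S100a3 was at -1.22 (adjusted p = 0.0164), S100g passed too and S100pbp was at 0.78 (adjusted p = 0.177).

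Of 30 listed receptors and binding partners of S100 proteins, 26 were on the array. In E1KD against NMuMG, 1 rose (Anxa6, a membrane-binding annexin, 0.81) and 3 fell: Fgf1, a cargo of S100a13 (-2.02), Stub1, a ubiquitin ligase (-0.59), and Bsg, or basigin, a receptor for S100a9 (-0.57). Over all genes 3.00% rose and 6.49% fell. The median of the 26 was -0.04 and that of all genes -0.07. In M1P 5 rose, led by Anxa6 (1.32), Plat, the tissue plasminogen activator (0.95), and Stub1 (0.52), and 3 fell, the annexin partner Ahnak (-2.43), Mdm4 (-1.66) and Ppfibp1 (-0.87). Of all genes, 17.7% rose and 9.86% fell in M1P. The median of the 26 was 0.21, beside 0.20 over all genes. With M1P array 3 alone it was 0.23, beside 0.07. Here and in the lists below, a median on that array does not show that the calls of single genes hold. Many calls in M1P, or in L1P against M1P, did not pass there, where a single M1P array is left. In both lung lines Sugt1, a co-chaperone that binds S100a6, was the sole member to pass, rising by 1.25 in L1P and 1.21 in L2P. Of all genes, 1.19% rose and 1.29% fell in L1P, and 2.14% rose and 1.64% fell in L2P. Ager (RAGE) rose by 0.46 in M1P (limma adjusted p = 0.0395), and neither Myh9 nor Myh10, the myosin partners of S100a4, passed in any of the 6 comparisons. Against M1P, 6 rose and 8 fell in L1P, where 13.6% of all genes rose and 25.9% fell. With M1P array 3 alone the median of the 26 was -0.007, beside -0.10 over all genes.

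Of 12 annexins, 11 were on the array. Anxa2, the partner of S100a10, passed in none of the 6 comparisons. In E1KD 3 rose from NMuMG (Anxa10 1.02, Anxa7 0.90 and Anxa6 0.81) and 3 fell (Anxa9 -1.08, Anxa8 -0.98 and Anxa5 -0.65). Over all genes 3.00% rose and 6.49% fell. In L1P 3 rose from E1KD, Anxa10 by 1.53, Anxa8 by 1.10 and Anxa7 by 0.56, where 1.19% of all genes rose. In L2P the same 3 rose, by 1.37, 0.95 and 0.59, where 2.14% of all genes rose. In both, 0 fell, where 1.29% of all genes fell in L1P and 1.64% in L2P. In M1P 3 rose (Anxa6 by 1.32, Anxa9 by 1.04 and Anxa7 by 0.35), where 17.7% of all genes rose. The median of the 11 was -0.10, beside 0.20 over all genes. On M1P array 3 alone it was 0.31, beside 0.07. Against M1P, 3 rose and 2 fell in L1P, where 13.6% of all genes rose and 25.9% fell. With M1P array 3 alone the median of the 11 was 0.02, beside -0.10 over all genes.

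Of 30 other EF-hand calcium sensors, 25 were on the array. In E1KD 4 fell from NMuMG, where 6.49% of all genes fell, led by Sdf4 (-1.10), Cib1 (-1.04) and the calpain subunit Capns1 (-0.70). None rose, where 3.00% of all genes rose (0 higher at an unadjusted p under 0.05 in limma). The median of the 25 was -0.22, beside -0.07 over all genes. In M1P 11 rose, where 17.7% of all genes rose, and 0 fell, where 9.86% fell (median 0.44, all genes 0.20). The largest rises were those of Calml4 (3.46), Cib1 (1.35) and Nucb1 (1.22). On M1P array 3 alone the median of the 25 was 0.36, beside 0.07 over all genes. Cib1 alone rose in L1P (0.64) and in L2P (0.79), where 1.19% and 2.14% of all genes rose. Against M1P, 13 fell and 2 rose in L1P, where 25.9% of all genes fell and 13.6% rose. With M1P array 3 alone the median of the 25 was -0.22, beside -0.10 over all genes.

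The neighbours of the S100 genes on chromosome 3, taken as the other annotated genes from the first to the last member and 10 beyond each end, numbered 106, of which 46 were on the array. In E1KD 1 of the 46 fell from NMuMG, the small proline-rich gene Sprr2h (-3.86 ± 1.10, limma adjusted p = 0.042), where 6.49% of all genes fell. None rose, where 3.00% of all genes rose (0 higher at an unadjusted p under 0.05 in limma). The median difference of the 46 was -0.11, beside -0.07 over all genes and -1.29 for the 9 S100 members of the same region. The 2 groups are not alike in signal. Some neighbours were below the array medians in E1KD, such as Sprr2d (3.73), Lce1f (3.42) and Kprp (3.38), though Sprr1a was bright (11.11). A fall in so dim a gene may not show, so the medians do not tell whether the fall is particular to S100 genes. In M1P 11 of 46 rose, where 17.7% of all genes rose, and 0 fell, where 9.86% fell. The largest rises were those of Sprr1a (2.18), Sprr1b (1.27) and Lor (0.94). The median of the 46 was 0.25, beside 0.20 over all genes. On M1P array 3 alone it was 0.21, beside 0.07. In L1P 1 fell from E1KD (Sprr1b, -2.10), where 1.29% of all genes fell. In L2P 0 of 46 passed (2 lower at an unadjusted p under 0.05 in limma), where 2.14% of all genes rose and 1.64% fell. Against M1P, 18 fell in L1P, where 25.9% of all genes fell, and 0 rose, where 13.6% rose. The median difference of the 46 was -0.36, beside -0.25 over all genes. With M1P array 3 alone it was -0.33, beside -0.10.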

How the data were processed

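RNA from 15 arrays, 3 for each of 5 lines, was measured on an Affymetrix mouse platform. The authors deposited log2 signals per probe set, used here as deposited; per the submitters' processing notes they used RMA, MAS5 and Affymetrix Expression Console, with roles and versions not given in the sources used here. Probe sets were named from the platform annotation, with symbols updated by Entrez identifier from RefSeq (GRCm38.p6); 932 with several symbols and 9160 with none were left out of gene tests.

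The probe set with the highest mean stood for its gene. limma 3.58.1 (R 4.3.3) fitted 1 mean per line over all 15 arrays (10 residual and 2.98 prior degrees of freedom), with two-sided moderated tests adjusted by Benjamini and Hochberg over 18193 genes and a threshold of 0.05. The script was tested on simulated data. Values after ± are SD for levels and SE for differences.

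Named genes were the members, up to 3 per direction of the passing genes of each list, by size, the 5 genes most like S100a4, and Pcbp1. Markers, Ager, Anxa2, Myh9, Myh10 and Col1a1 named beyond that rule were chosen with their values known. The members and lists were chosen with earlier results of these data known. Alternatives were quantile normalization, a filter on low signals, another probe set per gene, array weights, an intensity trend, a replicate block, only the lines compared, and leaving out arrays. The list counts and medians without M1P arrays 1 and 2 were added after seeing the data. Promoters are from a RefSeq table, in which 8 of the 10 members have a window.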

Additional observations from a re-analysis of the deposited data

Results flagged for a closer look

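The change from E1KD differed between the lung line L1P and the tumour line M1P for 7 of the 9 measured members, by limma's test of the difference itself, which is L1P minus M1P. All 7 were lower in L1P, where 25.9% of all genes were lower and 13.6% higher. The difference was -2.37 on the log2 scale for S100a4, -1.87 for S100a8, -1.44 for S100a1, -1.23 for S100a16, -0.85 for S100a13, -0.76 for S100a14 and -0.34 for S100a10. S100a4 and S100a8 change places with array weights (-2.28 and -2.46) and without M1P arrays 1 and 2 (-2.20 and -2.85), and the L1P signals of S100a8, 4.24 to 5.00, lie near the array medians. Without M1P arrays 1 and 2, 3 of the 7 passed (S100a4, S100a8 and S100a1), where 4.12% of all genes passed as lower, with the spread taken from the other lines because a single M1P array is left.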

How the results depend on the processing

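Over 54 member differences and 708 alternative values, 638 kept direction and side of the threshold, 37 lost the call, 11 gained it and 22 changed sign. The count of members that passed for E1KD against NMuMG was 6 to 7 when each array was left out in turn, for M1P against E1KD 3 to 6, for L1P against M1P 5 to 7, for L1P and for L2P against E1KD 1, for L2P against L1P 0, and by the F test 8. With array weights, whose estimation stopped before its tolerance, the count was 1 for M1P against E1KD, 2 for L1P against E1KD, 3 for L2P against E1KD and 2 for L1P against M1P. With only the lines compared it was 0 for M1P against E1KD (adjusted p 0.0723 or more) and 2 for L1P against M1P, and without M1P arrays 1 and 2 it was 3 for the latter. The cause was not tested.

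Of the values that changed sign, 2 had passed: S100a10 with its probe set of largest variance, at -0.13 for M1P minus E1KD and 0.51 for L1P minus M1P. The others had not passed. With array weights, L2P minus E1KD was -0.085 for S100a1 and -0.029 for S100a13, and L2P minus L1P -0.090 for S100a16. S100a6 was 0.014 for L1P minus M1P without M1P arrays 1 and 2. Leaving out each array, L2P minus E1KD ran from -0.060 to 0.20 for S100a1, -0.033 to 0.13 for S100a10, -0.0028 to 0.32 for S100a13 and -0.032 to 0.79 for S100a9. L2P minus L1P ran from -0.75 to 0.086 for S100a8, -0.41 to 0.27 for S100a9, -0.32 to 0.0011 for S100a13, -0.34 to 0.042 for S100a14 and -0.12 to 0.30 for S100a16. S100a9 ran from -0.061 to 0.99 for M1P minus E1KD and from -0.46 to 0.44 for L1P minus M1P.

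The filter kept 9097 genes and left out S100a9 and S100a14. Whether arrays with the same number pair was not settled. Over 30 pairs the correlation of deviations ran from -0.50 to 0.75, with a median of 0.11 and 16 over 0.1. With a replicate block the member counts were 7, 5, 1, 1, 0 and 7 in the order E1KD against NMuMG, M1P, L1P and L2P against E1KD, L2P against L1P and L1P against M1P, and S100a14 passed for M1P minus E1KD (0.60, limma adjusted p = 0.0276). Signals near the array median, with no detection calls, limit S100a8, S100a9, S100a14 and S100g, and the ceiling limits S100a6.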
